A study of Mus musculus with 8 samples.

Results

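The matrix metalloproteinases (MMP genes), the ADAMTS proteases and the tissue inhibitors of metalloproteinases (TIMP genes) were read on whole-genome oligonucleotide arrays of 3 mouse cell types. They were chosen by symbol from the probe sets annotated to a single gene. The 37 genes found were 18 MMP, 15 ADAMTS and 4 TIMP genes of 18193 genes measured. Not every gene of these families was found. For example, 4 of 6 listed membrane-type MMPs and 1 of 3 listed ADAMTS genes that mature procollagens were measured. The arrays came from wild-type ES cells of the V6.5 line (ES, 3 arrays), wild-type neural precursor cells (NPC, 3 arrays) and wild-type primary embryonic fibroblasts (MEF, 2 arrays). The ES cells had been grown on irradiated fibroblast feeders and then passaged on gelatin without them, with serum and leukemia-inhibiting factor. The NPC had been differentiated in culture from ES cells through embryoid bodies and a selection medium, and were kept in the growth factors labelled FGF2 and EGF2. The MEF were grown in serum. No ages, passages or separate cultures are stated for the arrays of a group, so the p-values measure the spread between arrays, which may be technical.

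MMPs are zinc-dependent endopeptidases that are made as inactive precursors and cut collagens, other matrix proteins and cell surface proteins. ADAMTS proteases are secreted relatives that carry thrombospondin repeats, and they cut proteoglycans such as aggrecan, versican and brevican, mature the fibrillar procollagens or act on other matrix proteins. TIMPs are small proteins that occupy the active site of these enzymes. Timp3 also blocks several ADAM and ADAMTS enzymes and is held in the matrix, whereas the other TIMPs are soluble. Fibroblasts are known as a main source of these proteins in connective tissue, and in brain the ADAMTS enzymes act on the proteoglycans around neural cells.

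All values are normalized log2(intensity + 16), in which a signal of zero would lie at 4, and a difference is a difference of such values, so that the changes of dim genes are understated. The median over all genes and arrays was 6.06. Calls required an adjusted p below 0.05 (limma, Benjamini-Hochberg adjustment over all genes) together with a log2 difference of at least 1. Probe sets differ in their response, so levels were compared between cell types for each gene and not between genes. In bulk RNA, fewer cells of a type and less RNA per cell cannot be told apart.

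The labels were set against markers of each cell type. The marker lists were chosen with earlier results of these data known, so they are not an independent check. The summed level of 4 ES markers ran from 13.98 to 14.06 in ES cells and did not pass 4.98 on any other array. That of 5 MEF markers lay at 14.73 and 14.77 on the MEF arrays, 7.92 to 8.02 on the ES arrays and 5.39 to 6.49 on the NPC arrays. The sum of 5 NPC markers separated the groups less, at 13.64 to 14.32 in NPC, 12.00 to 12.22 in ES cells and 9.37 to 9.43 in MEF. Of these 5 genes, 4 were higher in NPC than in ES cells, and Sox2, which ES cells also express, was not called (-0.98). Nes, Fabp7 and Ptprz1 were also higher in MEF than in ES cells. The first NPC array (NPC 1) stood apart within its group over all probe sets, with correlations of 0.967 and 0.969 to the other NPC arrays, which correlated at 0.987 with each other. For several members on which NPC 1 lay apart, a value without that array is given.

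Most differences among these genes lay between MEF and the other cell types. In MEF, 20 of the 37 members were higher than in ES cells and 1 was lower. Among all genes 12.2% were called higher and 12.8% lower in that comparison. The median log2 difference was 1.04 over the members and -0.04 over all genes. Against NPC, 16 members were higher in MEF and 2 lower, where 10.5% and 7.95% of all genes were called, with a median of 0.81 over the members and -0.01 over all genes. Between NPC and ES cells 7 members were higher in NPC and 5 lower, and the background was 10.0% and 12.9%. The members' median was then 0.01, against -0.05 for all genes. Without NPC 1 these counts were 8 and 7. The arrays of the compared groups overlapped for none of the members called. The members called numbered 12 for NPC against ES cells, 21 for MEF against ES cells and 18 for MEF against NPC. The share of called genes without overlap was not computed over all genes. The lack of overlap therefore describes these members and adds no support beyond the calls. The 3 comparisons share arrays and are not independent of each other.

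**Figure D1:**
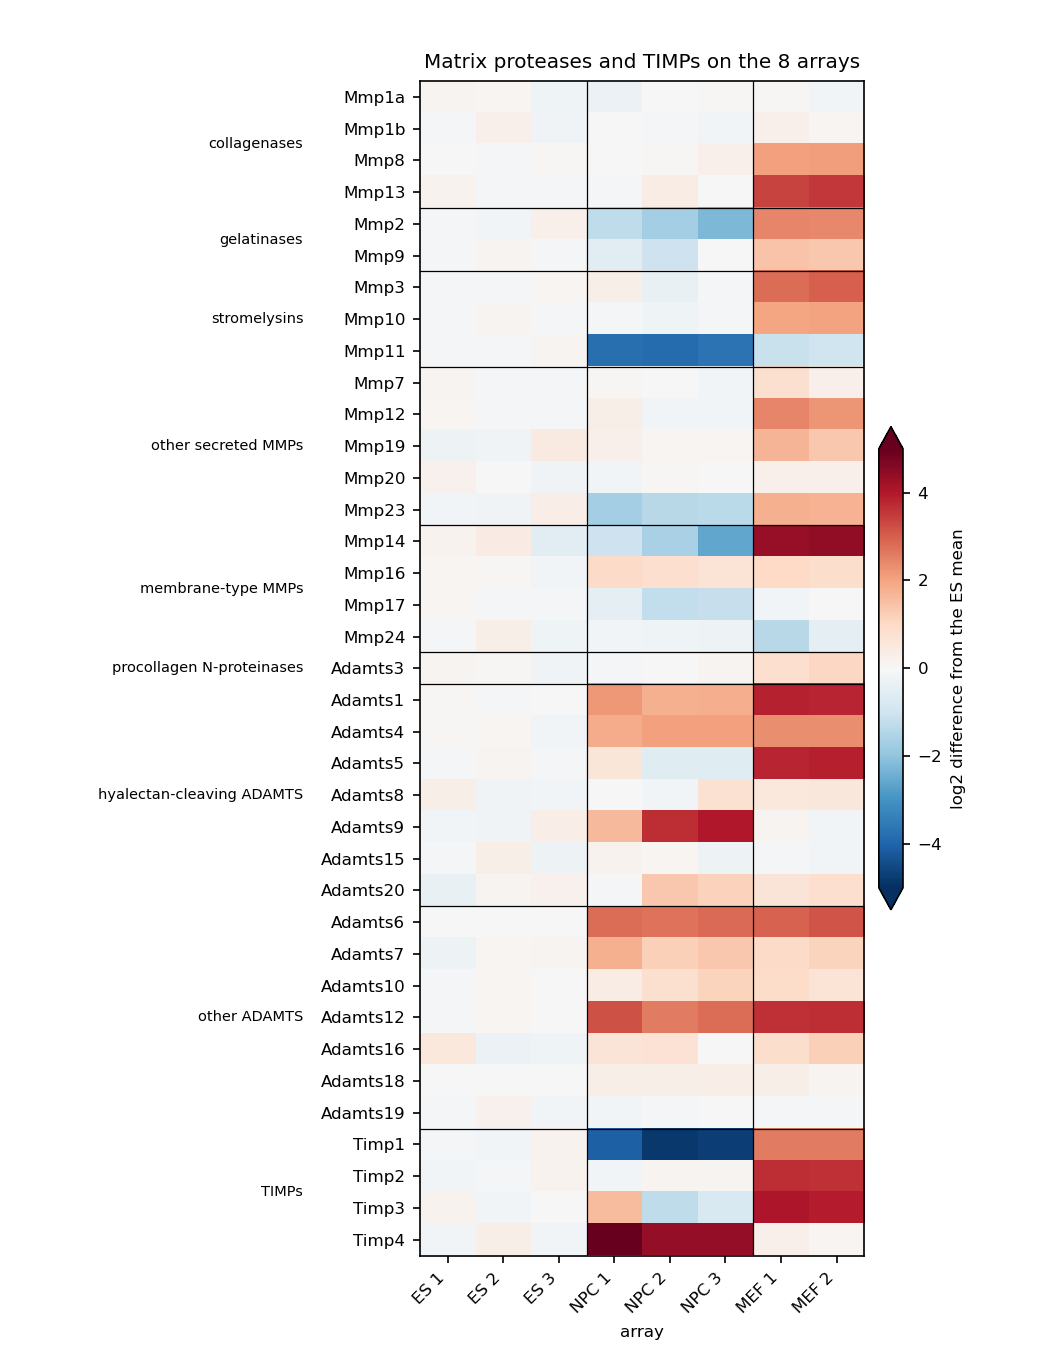
Heat map of the 37 members (rows, by role) on the 8 arrays (columns); colour is the normalized log2 value minus the gene's mean over the 3 ES arrays, and the scale ends at 5 in either direction. The MEF columns are red for Mmp13, Mmp14, Mmp3 and other MMPs and for Timp1 to Timp3, while the NPC columns are blue for Mmp2, Mmp11, Mmp14, Mmp23 and Timp1 and red for Timp4, Adamts9 and several other ADAMTS genes.

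A stricter description asked that every array of a cell type lie at least 1 log2 unit above all arrays of the others. By it 14 members were highest in MEF (4.85% of all genes), 2 in NPC (2.50%) and 0 in ES cells (5.48%). The 14 were Mmp2, Mmp3, Mmp8, Mmp9, Mmp10, Mmp12, Mmp13, Mmp14, Mmp23, Adamts1, Adamts5, Timp1, Timp2 and Timp3, and the 2 were Adamts9 and Timp4. Of the 14, Mmp8, Mmp9, Mmp10 and Mmp12 dropped out with a pseudocount of 64, which left 10. At the deposited scaling 17 members were highest in MEF, with Adamts4, Adamts12 and Mmp19 added. Adamts9 dropped out at the deposited scaling, where its lowest NPC array was at 7.90 and its highest other array at 7.05, and when its probe sets were averaged (7.05 and 6.14). In the other direction, 4 members were lowest in ES cells by the same margin (3.02% of all genes), and these were the proteases Adamts1, Adamts4, Adamts6 and Adamts12. Another 4 were lowest in NPC (2.57%), namely Mmp2, Mmp11, Mmp23 and Timp1, and 0 were lowest in MEF (1.41%). Of these, Mmp2 and Mmp23 dropped out with a pseudocount of 64, and Mmp2 under the trimmed mean scaling. No test was attached to these counts.

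The TIMP genes divided between the cell types. Timp1, an inhibitor induced by growth factors and cytokines, was at 9.47, 9.40 and 9.71 on the ES arrays, 5.46, 4.71 and 4.81 on the NPC arrays and 12.11 and 12.14 on the MEF arrays. No groups overlapped, with MEF highest and NPC lowest. Timp1 was 23.2-fold lower in NPC than in ES cells (log2 difference -4.53, SE 0.19, limma adjusted p = 1.31e-07) and 6.06-fold higher in MEF than in ES cells (2.60, SE 0.21, adjusted p = 8.23e-06). Between MEF and NPC its difference was 7.13 (SE 0.21), the largest of any member in any comparison. Without NPC 1, its highest NPC array, the differences were -4.80 from ES cells and 7.40 between MEF and NPC.

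Timp4, known from heart and brain, had the opposite pattern. Its values were 9.51, 8.59 and 8.56 on the NPC arrays, 4.03, 4.47 and 4.06 on the ES arrays and 4.43 and 4.28 on the MEF arrays. It stood well above the floor in NPC alone, while the ES and MEF arrays overlapped. The difference was 4.70 (SE 0.27, adjusted p = 9.33e-07) for NPC with ES, a 26.0-fold higher level, and -4.53 (SE 0.30, adjusted p = 3.84e-06) for MEF with NPC. Its other probe set differed by 3.60 and -3.56. Without NPC 1, which was the highest array, the difference from ES cells was 4.42 and that of MEF from NPC -4.24.

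Timp2, which besides inhibition helps Mmp14 to activate the Mmp2 precursor, was at 7.99, 8.10 and 8.33 on the ES arrays and 7.99, 8.27 and 8.27 on the NPC arrays. These groups overlapped, and the difference of 0.04 (SE 0.12, adjusted p = 0.82) was within the spread of the arrays. The MEF arrays read 11.84 and 11.78, 12.7-fold above ES cells (3.67, SE 0.13) and 12.4-fold above NPC (3.63, SE 0.13). Over its 6 probe sets the difference of MEF from ES cells ran from 0.61, on a dim probe set, to 4.09. The probe sets disagreed on NPC with ES, where they ran from 0.04 to 1.65. Timp3, the matrix-bound inhibitor, was at 9.49 and 9.37 on the MEF arrays and 5.63, 5.29 and 5.41 on the ES arrays, a 15.9-fold difference (3.99, SE 0.68, adjusted p = 0.00105). On the NPC arrays it was at 7.04, 4.18 and 4.68, with NPC 1 above every ES array and the others below. Its difference of NPC from ES cells was -0.14 (adjusted p = 0.884), and without NPC 1 it was -1.01 and called (adjusted p = 0.00109). Against MEF the difference of 4.13 rose to 5.03 without NPC 1.

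By the RefSeq gene table (assembly GRCm38.p6), Timp1, Timp3 and Timp4 each overlap a synapsin gene, Syn1, Syn3 and Syn2 in that order. Synapsins are proteins of synaptic vesicles. Syn2 was at 6.78, 6.56 and 6.46 on the NPC arrays, 4.40 to 5.08 on the ES arrays and 4.63 and 4.66 on the MEF arrays. Like Timp4 it was highest in NPC, by 1.91 over ES cells (adjusted p = 4.9e-05), and it was 1.95 lower in MEF than in NPC. Syn1 was not called in any comparison, with group means of 5.91 in ES cells, 6.56 in NPC and 5.70 in MEF, although Timp1 was called in all 3. Syn3 was not called either, with means of 5.43, 5.20 and 5.07. Mixing of signal between a synapsin gene and its TIMP gene was not tested.

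**Figure D2:**
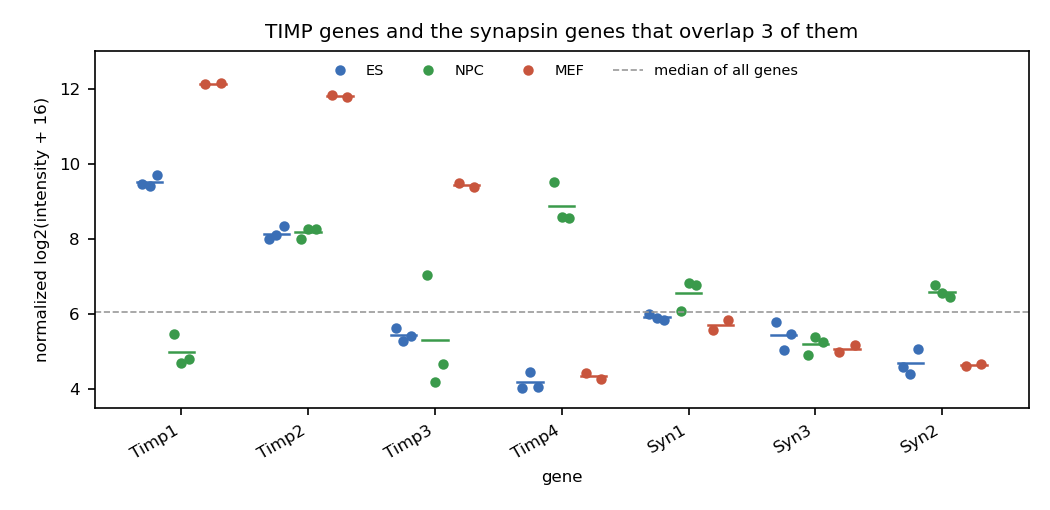
Normalized log2(intensity + 16) of the TIMP genes and of the synapsin genes Syn1, Syn3 and Syn2, which overlap Timp1, Timp3 and Timp4; points are arrays (ES 3, NPC 3, MEF 2), short bars are group means and the dashed line is the median of all genes at 6.06. Timp1 is high in MEF and near the floor in NPC, Timp4 and Syn2 are high in NPC alone, and NPC 1 is the upper NPC point of Timp3 at 7.04.

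Mmp14, the membrane-type enzyme MT1-MMP that cuts collagen at the cell surface and activates the Mmp2 precursor, read 11.09 and 11.17 on the MEF arrays. It was at 6.90, 7.14 and 6.15 on the ES arrays and 5.71, 5.11 and 4.14 on the NPC arrays, so that no groups overlapped but the ES and NPC arrays were widely spread. MEF was 21.2-fold above ES cells (4.41, SE 0.43, adjusted p = 2.91e-05) and 70.8-fold above NPC (6.15, SE 0.43). NPC was 3.34-fold below ES cells (-1.74, SE 0.38, adjusted p = 0.00446), a call that ended with a pseudocount of 64 (-0.93). Without NPC 1 it was -2.11. Mmp2, the gelatinase that Mmp14 activates, followed the same order of groups. Its values were 9.38 and 9.37 in MEF, 6.85, 6.80 and 7.21 in ES cells and 5.69, 5.27 and 4.70 in NPC. The differences were 2.42 (SE 0.27) for MEF with ES, 4.15 (SE 0.27) for MEF with NPC and -1.73 (SE 0.24) for NPC with ES. Its second probe set gave 2.86, 4.50 and -1.65. Without NPC 1, Mmp2 differed on the probe set used by 4.42 for MEF with NPC and by -1.98 for NPC with ES.

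The other gelatinase, Mmp9, known from leukocytes and osteoclasts, was at 6.96 and 6.86 in MEF, 5.46 to 5.66 in ES cells and 4.50 to 5.51 in NPC. MEF lay above both, by 1.38 over ES cells (adjusted p = 0.00246) and 1.92 over NPC, while the ES and NPC arrays overlapped. Mmp23, an MMP that lacks the usual hemopexin domain and overlaps the gene Mib2, was at 7.81 and 7.79 in MEF, 5.89, 5.85 and 6.37 in ES cells and 4.35, 4.64 and 4.69 in NPC. It thus had the order of Mmp2 and Mmp14, with NPC 2.78-fold below ES cells and MEF 3.39-fold above them. The fall in NPC was no longer called with a pseudocount of 64 (-0.67). Mmp19, which cuts basement membrane proteins, was called higher in MEF at 1.53 over ES cells and 1.39 over NPC. Its MEF arrays, at 6.23 and 5.88, lay on either side of the median of all genes.

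Mmp11, or stromelysin-3, which is activated inside the cell by furin, was the only MMP called lower in both NPC and MEF than in ES cells. It read 7.82, 7.78 and 8.03 there, 6.76 and 6.90 in MEF and 4.12, 4.04 and 4.20 in NPC. Its fall in NPC was 13.5-fold (-3.76, SE 0.15, adjusted p = 9.37e-08), the largest of any protease, and no groups overlapped. The smaller difference of MEF from ES cells was -1.05 (SE 0.16, adjusted p = 0.00056), and that call ended with median centring (-0.64), at the deposited scaling (-0.32), with a pseudocount of 64 (-0.81), with the replicate number as a block (-0.99) and without ES 3 or MEF 1 (-0.97 each). Among the remaining membrane-type genes, Mmp17, Mmp16 and Mmp24 were not called in any comparison, but each was under some alternatives. Mmp17 was at 6.06, 5.28 and 5.37 in NPC and at 6.46 to 6.64 in ES cells, a difference of -0.96 that was -1.21 and called without NPC 1. It was called too without ES 2 or ES 3 and with a pseudocount of 1 (-1.28), and MEF then differed from NPC by 1.22. That difference, 0.91 on all arrays, was also called with median centring and without NPC 1 (1.16 each), and on the deposited scaling. Mmp16 had differences of 0.83 and 0.92 from ES cells in NPC and MEF, below the minimum of 1. Another of its 4 probe sets gave 1.58 and 1.91. Mmp16 was called in MEF over ES cells with the mean of probe sets (1.17), at the deposited scaling (1.30) and with a pseudocount of 1 (1.48), and with the last also in NPC (1.35). Mmp24 differed by -0.92 between MEF and ES cells, with its MEF arrays at 4.10 and 4.99. It was called lower with median centring (-1.04), with a pseudocount of 1 (-2.26) and without ES 3 (-1.05), among others. Without MEF 2 the difference was -1.33. The other probe sets of Mmp24 gave 0.09 and 0.20 for MEF with ES.

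**Figure D3:**
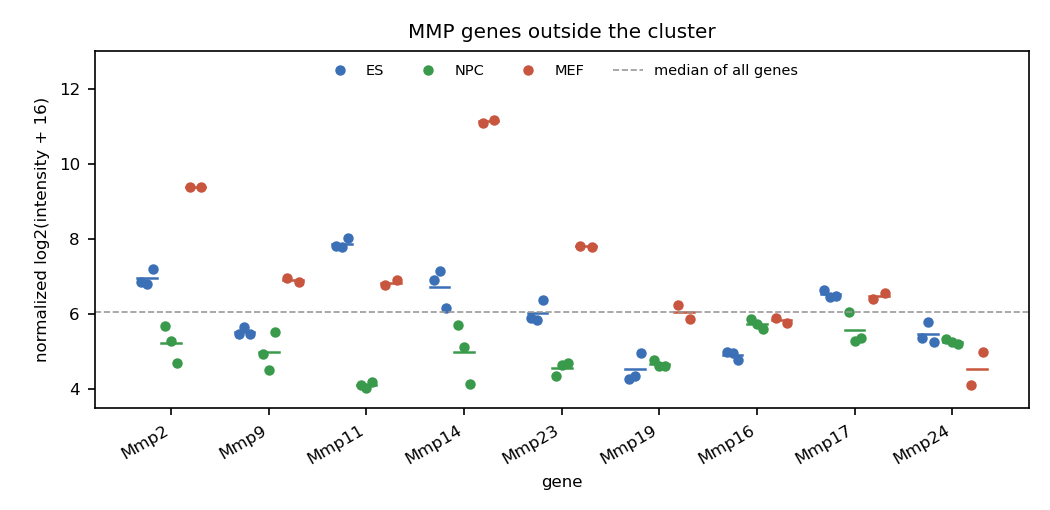
Normalized log2(intensity + 16) of the MMP genes outside the run of adjacent MMP genes; points are arrays (ES 3, NPC 3, MEF 2), short bars are group means and the dashed line is the median of all genes at 6.06. Mmp2, Mmp14 and Mmp23 step down from MEF to ES to NPC, and Mmp11 is highest in ES cells and near the floor in NPC.

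Some markers of other cell types moved with the members that were higher in ES cells than in NPC (Mmp2, Mmp11, Mmp14, Mmp23 and Timp1). Of 5 MEF markers, 3 were also lower in NPC than in ES cells (12.9% of all genes), and their summed level is given above. Col1a1, a fibrillar collagen gene and a defining marker, was at 5.98 to 6.39 on the ES arrays, 4.10 to 4.24 on the NPC arrays and 12.97 and 13.02 on the MEF arrays. Of 6 primitive endoderm markers, 3 were lower in NPC, with a summed level of 9.26 to 9.41 in ES cells, 6.28 to 7.02 in NPC and 9.87 to 9.89 in MEF. Among these, Gata6 fell by 2.32, Dab2 by 3.29 and Sox17 by 1.26. Gata4 (-0.74), Afp (0.16) and Foxa2 (0.23) were not called. Dab2 was also high in MEF, at 9.60 and 9.59. Mmp11 was higher in ES cells than in MEF under the main settings, a call that ended under several alternatives as given above. The part of such other cell types in the result was not tested.

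The interstitial collagenases, the stromelysins Mmp3 and Mmp10, the matrilysin Mmp7, the macrophage elastase Mmp12 and the enamel protease Mmp20 form a run of 10 adjacent protein-coding genes in the RefSeq table, from Mmp13 through Mmp12, Mmp1b, Mmp3, Mmp1a, Mmp10, Mmp8, Mmp27 and Mmp20 to Mmp7. Of the 9 measured here, 5 were called higher in MEF than in each of the other cell types. For all genes, 12.2% were called higher in MEF than in ES cells and 10.5% higher than in NPC. The share of all genes called in both was not computed. Mmp13, the main interstitial collagenase of the mouse, was at 7.57 and 7.70 in MEF, 4.37, 4.07 and 4.09 in ES cells and 4.08, 4.57 and 4.21 in NPC. It was 11.0-fold above ES cells (3.46, SE 0.20, adjusted p = 1.16e-06) and 10.2-fold above NPC. Mmp3, or stromelysin-1, was at 7.55 and 7.72 in MEF, 4.69, 4.68 and 4.84 in ES cells and 5.05, 4.38 and 4.68 in NPC, with MEF 7.44-fold above ES cells (2.90, SE 0.22, adjusted p = 5.5e-06). Both stood apart on each MEF array, and neither differed between NPC and ES cells beyond the spread (0.11 and -0.03).

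Mmp10, or stromelysin-2, read 6.50 and 6.57 in MEF, 4.48, 4.68 and 4.45 in ES cells and 4.46, 4.32 and 4.43 in NPC (2.00 over ES cells, SE 0.15). Mmp12 read 6.67 and 6.41 in MEF, 4.33, 4.16 and 4.18 in ES cells and 4.51, 4.08 and 4.10 in NPC (2.32, SE 0.18). Mmp8, the collagenase of neutrophils, read 6.15 and 6.20 in MEF, 4.09, 4.06 and 4.18 in ES cells and 4.09, 4.15 and 4.35 in NPC (2.06, SE 0.14). All 3 lay near the median of all genes in MEF and near the floor in ES cells and NPC. With a pseudocount of 64 the differences from ES cells were 0.99 for Mmp10 and 0.89 for Mmp8, which ended those calls, as it did for Mmp9 (0.84) and Mmp19 (0.69). The other 4 of the run (Mmp1a, Mmp1b, Mmp7 and Mmp20) were dim everywhere, at 4.04 to 4.53 in ES cells and NPC and 4.25 to 5.12 in MEF, and none was called. Mmp27 was not analysed here.

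**Figure D4:**
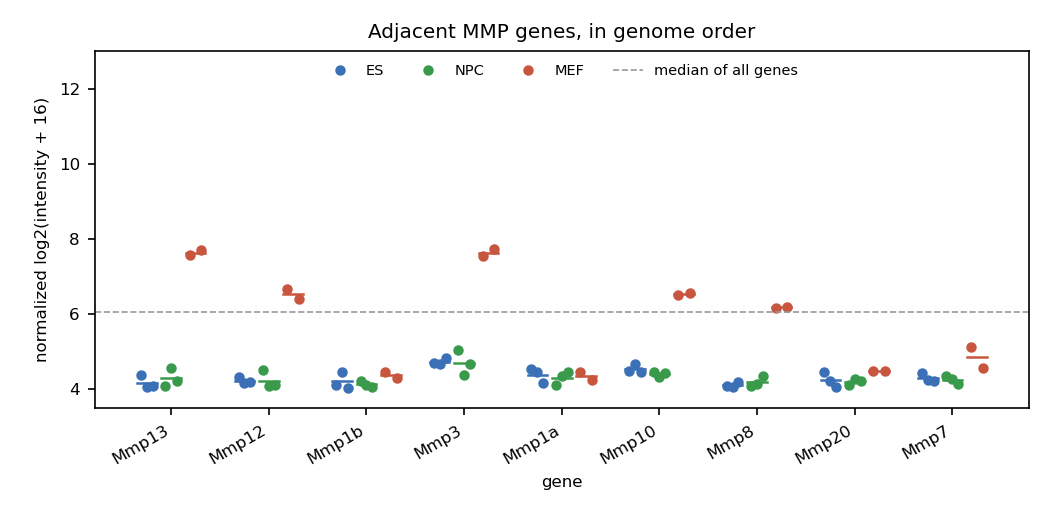
Normalized log2(intensity + 16) of the 9 measured genes of the run of adjacent MMP genes, in genome order; points are arrays (ES 3, NPC 3, MEF 2), short bars are group means and the dashed line is the median of all genes at 6.06. Mmp13, Mmp12, Mmp3, Mmp10 and Mmp8 are above the other groups in MEF, and the 4 other genes lie near the floor in all groups.

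Some markers of blood cells and of cartilage moved with these genes in MEF. Of 10 macrophage markers, 7 were higher in MEF than in ES cells and Cd68 was lower. Among all genes 12.2% were called higher and 12.8% lower there. The macrophage sum was 10.29 and 10.30 on the MEF arrays, 8.53 to 8.60 on the ES arrays and 6.77 to 7.17 on the NPC arrays. Lyz2, the lysozyme of macrophages, was at 8.94 and 9.03 in MEF and at 4.24 to 5.16 elsewhere, while Csf1r was not called and Itgam was at no more than 4.86 on any array. Of 6 neutrophil markers, 3 were higher in MEF than in ES cells, among them S100a8 at 6.97 and 7.08, while Elane, Ltf and Camp were not called. The neutrophil sum was 8.07 and 8.15 in MEF, 5.18 to 5.51 in ES cells and 5.56 to 5.99 in NPC. The sum of 5 cartilage and bone markers was 8.45 to 8.52 in MEF, 6.75 to 6.81 in ES cells and 5.28 to 5.89 in NPC. Of these, Col2a1, the main cartilage collagen gene, was higher in MEF than in ES cells (2.60), and Col2a1 and Acan were higher than in NPC (3.61 and 1.74), while Col10a1, Ibsp and Sp7 were not called. The part of these cells in the levels of the MMPs and of Adamts5 was not tested.

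Promoter sequence was listed for 23 of the 37 members in RefSeq's table (GRCm38.p6). The 250 bases before each annotated start were searched, on both strands except for TATAAA. AP-1, the Jun and Fos dimer known to act on MMP promoters, was searched as TGAGTCA or its complement TGACTCA. These letters were found in 7 of the 23 members and in 5.16% of all 27025 genes listed. All 7 belong to the run of adjacent genes: Mmp10, Mmp12, Mmp13 and Mmp3, which were higher in MEF, and Mmp1a, Mmp1b and Mmp7, which were dim in all groups. The letters TATAAA of a TATA box, searched on the strand of the gene alone, were in 8 of the 23 members and 8.94% of all genes. The ETS factor letters AGGAAG or CTTCCT were in 11 of the 23 and 32.3% of all genes. The 120 bases before the start are shown for 3 genes that were higher in MEF and hold the AP-1 letters, for Mmp1a, which holds them and was dim, and for Mmp8, which was higher in MEF and lacks them in its 250 bases. All are on the plus strand, and capitals mark the AP-1 and TATAAA letters.
Mmp13, chr9:7272394-7272513: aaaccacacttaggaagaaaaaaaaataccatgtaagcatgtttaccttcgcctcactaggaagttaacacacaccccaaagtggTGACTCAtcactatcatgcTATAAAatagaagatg
Mmp3, chr9:7445702-7445821: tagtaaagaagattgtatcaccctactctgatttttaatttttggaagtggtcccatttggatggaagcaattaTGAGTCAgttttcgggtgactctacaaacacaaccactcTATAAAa
Mmp10, chr9:7502222-7502341: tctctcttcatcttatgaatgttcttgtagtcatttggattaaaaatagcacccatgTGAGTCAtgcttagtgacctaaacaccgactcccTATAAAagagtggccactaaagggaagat
Mmp1a, chr9:7464021-7464140: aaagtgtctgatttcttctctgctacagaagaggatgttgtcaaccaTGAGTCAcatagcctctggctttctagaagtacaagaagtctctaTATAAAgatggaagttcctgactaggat
Mmp8, chr9:7558309-7558428: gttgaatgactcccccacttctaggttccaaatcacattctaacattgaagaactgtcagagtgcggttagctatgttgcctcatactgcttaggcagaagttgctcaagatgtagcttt

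In these stretches the AP-1 letters began at -35 in Mmp13, -46 in Mmp3, -63 in Mmp10 and -73 in Mmp1a, counted from the annotated start. They began at -44 in Mmp12, before the second of its listed starts, at -63 in Mmp7 and at -93 in Mmp1b. A match of letters is a description of the sequence. The genes of AP-1 and ETS factors were measured as a list. In it 8 of 12 were higher and 1 lower in MEF than in ES cells, where 12.2% and 12.8% of all genes were called. Fosl2 rose by 5.13, Ets1 by 4.38 and Fosl1 by 3.85, while Etv5 fell by 2.92. Between NPC and ES cells 3 of the 12 were higher (10.0% of all genes), namely Ets1 (3.60), Jun (3.36) and Fosl2 (1.54). Junb was lower (-1.11), where the share of all genes was 12.9%. In MEF against NPC, 4 were higher (10.5% of all genes), led by Fosl1 (4.74), Fosl2 (3.59) and Junb (3.22). Etv5 (-3.73) and Etv4 (-1.01) were lower (7.95% of all genes).

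Of the 7 members that rose in NPC over ES cells, 6 were ADAMTS genes and the other was Timp4. Of 15 ADAMTS genes, 6 were higher in NPC than in ES cells and 0 lower, while of 18 MMPs 0 were higher and 4 lower, and the background of all genes was 10.0% and 12.9%. In MEF 7 of the 15 were higher than in ES cells, where 12.2% of all genes were called higher. Adamts1, which cuts aggrecan and versican, was at 5.34, 5.22 and 5.27 in ES cells, 7.46, 7.06 and 7.08 in NPC and 9.11 and 9.08 in MEF. The groups formed 3 separate levels, with differences of 1.92 (SE 0.14) from ES cells to NPC and 1.90 (SE 0.16) from NPC to MEF. Without NPC 1, its highest NPC array, these were 1.80 and 2.04. Its neighbour in the genome, Adamts5, the main aggrecanase of mouse cartilage, behaved otherwise. Adamts5 was at 9.16 and 9.25 in MEF, 5.31, 5.51 and 5.27 in ES cells and 5.96, 4.76 and 4.74 in NPC. It was higher in MEF, 14.3-fold over ES cells (3.84, SE 0.34, adjusted p = 1.66e-05) and 16.6-fold over NPC, while the ES and NPC arrays overlapped and NPC 1 lay above both groups' other arrays. Without NPC 1 the difference of NPC from ES cells was -0.62 (not called, limma adjusted p = 0.0048) and that of MEF from NPC 4.48.

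A set of ADAMTS genes was high in both NPC and MEF. Adamts4, the other well-known aggrecanase, was at 7.42, 7.63 and 7.61 in NPC and 7.91 and 7.88 in MEF, against 5.63, 5.66 and 5.42 in ES cells. Its differences from ES cells were 1.99 (SE 0.13) and 2.33 (SE 0.15), and MEF and NPC differed by 0.34 (adjusted p = 0.0985), which became 1.21 and was called at the deposited scaling. Adamts6, which acts on extracellular microfibrils, was near the floor in ES cells at 4.16, 4.12 and 4.11. It read 6.93, 6.83 and 6.95 in NPC and 7.06 and 7.28 in MEF, 6.85-fold and 8.24-fold above ES cells, and MEF and NPC differed by 0.27 (adjusted p = 0.236). That difference was 1.04 and called at the deposited scaling, and -0.89 on the other probe set of Adamts6. Adamts12, which cuts cartilage oligomeric matrix protein, was at 4.66, 4.83 and 4.73 in ES cells, 7.92, 7.32 and 7.55 in NPC and 8.40 and 8.42 in MEF. It was 7.25-fold and 12.7-fold above ES cells. The difference between MEF and NPC was 0.81 (adjusted p = 0.00716), below the minimum of 1, and it was called at 1.35 with median centring and at 1.69 on the deposited scaling. The dimmer probe set of Adamts12 showed no such rise, at -0.18 for NPC and 0.02 for MEF with ES. Adamts7, of the same subfamily, was higher by 1.44 in NPC (SE 0.20; 0.66 and not called with a pseudocount of 64) and by 1.04 in MEF (SE 0.22). The MEF call ended without ES 1 (0.91) or MEF 2 (0.93), with a pseudocount of 64 (0.43) and under the trimmed mean scaling (0.87).

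Adamts9, which cuts versican and aggrecan, was the only protease whose NPC arrays all stood at least 1 log2 unit above the other arrays, though not at the deposited scaling or with the mean of its probe sets. It read 8.06, 10.14 and 10.42 on the NPC arrays, 6.31, 6.24 and 6.75 on the ES arrays and 6.56 and 6.28 on the MEF arrays. NPC 1 lay far below the other NPC arrays and still above all ES and MEF arrays, which overlapped. NPC was 8.64-fold above ES cells (3.11, SE 0.52, adjusted p = 0.000927) and 8.69-fold above MEF (adjusted p = 0.00243), and without NPC 1 the difference from ES cells was 3.88 and that of MEF from NPC -3.89. The other probe sets of Adamts9 gave 2.48 and 1.59 for NPC with ES. Adamts20, a versican protease of the same subfamily, was at 4.33, 5.72 and 5.53 on the NPC arrays and 4.02 to 4.61 on the ES arrays. It was not called (0.81, adjusted p = 0.0832), and without NPC 1 its difference was 1.25 and called.

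**Figure D5:**
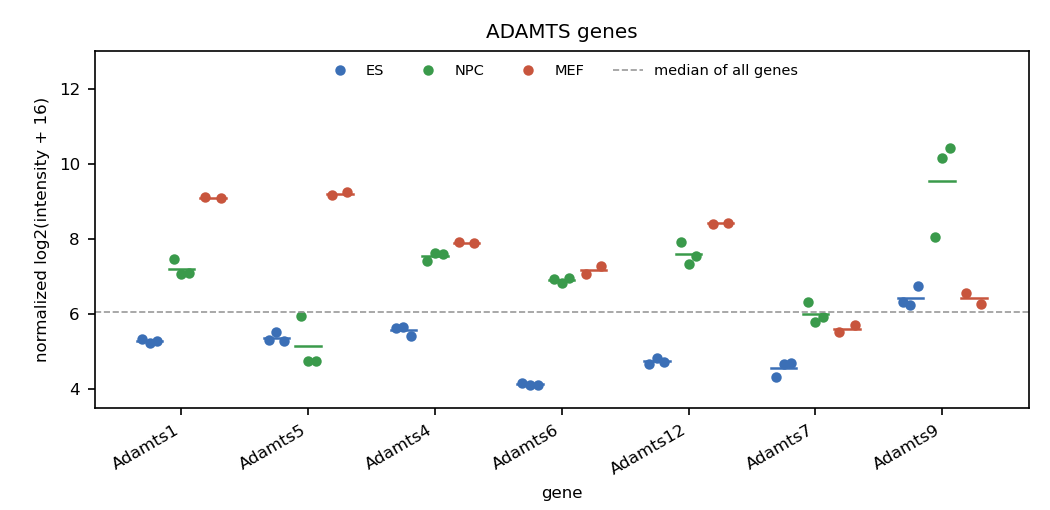
Normalized log2(intensity + 16) of 7 ADAMTS genes; points are arrays (ES 3, NPC 3, MEF 2), short bars are group means and the dashed line is the median of all genes at 6.06. Adamts4, Adamts6 and Adamts12 are high in NPC and MEF, Adamts5 in MEF alone and Adamts9 in NPC alone, where NPC 1 is the lowest of the NPC points at 8.06.

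The remaining ADAMTS genes were dim or differed by less than about 1 log2 unit. Adamts16 was called higher in MEF than in ES cells (1.04, SE 0.30, adjusted p = 0.0193), with no array above 5.84. That call ended under 10 of 22 alternatives, among them leaving out ES 2 (0.90), ES 3 (0.95), MEF 1 (adjusted p = 0.053) or MEF 2 (0.87). Adamts3, which trims the amino-terminal propeptide of procollagens, differed by 0.93 between MEF and ES cells, under the minimum, and it was called without MEF 1, at the deposited scaling (1.28) and with a pseudocount of 1 (1.60). Adamts10, a relative of Adamts6, differed from ES cells by 0.76 in NPC and 0.80 in MEF, and the latter was called at 1.15 with median centring and at 1.47 on the deposited scaling. On the probe set used, 13 members had no array above the median of all genes: Mmp1a, Mmp1b, Mmp7, Mmp16, Mmp20, Mmp24, Adamts3, Adamts8, Adamts15, Adamts16, Adamts18, Adamts19 and Adamts20. Their values ran from 4.02 to 5.89, and Adamts16 was the only one called in any comparison under the main settings. Another probe set of Mmp16 had a MEF mean of 6.09. Adamts8 and Adamts15, which are neighbours in the genome, were both among them.

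Partners and activators of the proteases were measured as a list of 25 genes. Of these 12 were higher and 4 lower in MEF than in ES cells, where 12.2% and 12.8% of all genes were called. The hyaluronan receptor Cd44 (5.45), the procollagen C-proteinase gene Tll1 (4.93) and the plasminogen activator Plat (3.83) led the rises. Those lowest were the transmembrane protease Hpn (-2.02), Mep1b (-1.71) and Spock2 (-1.25). Against NPC, 10 were higher in MEF (10.5% of all genes), led by Tll1 (5.33), the urokinase receptor Plaur (4.71) and Pcolce2 (3.69), an enhancer of procollagen cleavage. Pcsk6 was lower (-1.18), where the share of all genes was 7.95%. Between NPC and ES cells 5 were higher (10.0% of all genes), led by Plat (4.64), Cd44 (3.21) and Bmp1 (2.86). Another 5 were lower (12.9% of all genes), led by Pcolce2 (-2.66), Plaur (-1.97) and Mep1b (-1.72). Furin, a convertase that activates Mmp11 and Mmp14, was higher in MEF than in ES cells by 1.91 and than in NPC by 2.05. Reck, a membrane-anchored MMP inhibitor, was not called in any comparison, with means of 7.26 in ES cells, 6.64 in NPC and 7.44 in MEF. Bsg, which encodes an inducer of MMP expression, was not called either.

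ADAMTS-like proteins carry the ancillary domains without the protease. Of 7 such or related genes, Adamtsl3 (2.35) and Adamtsl1 (1.71) were higher in MEF than in ES cells (12.2% of all genes). Adamtsl3 was also higher in NPC than in ES cells (1.47) and Adamtsl5 was lower (-1.10). The shares of all genes were 10.0% and 12.9% there, and 1 call of 7 in each direction is near them. In MEF against NPC, Adamtsl1 (2.17), Adamtsl5 (2.03) and Adamtsl4 (1.41) were higher (10.5% of all genes).

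Substrates of these enzymes differed too. Of 15 measured, 4 were higher and 5 lower in NPC than in ES cells (10.0% and 12.9% of all genes). The brain proteoglycan genes Bcan (6.29) and Ncan (5.12) and the fibrillin gene Fbn2 (5.14) led the rises, and Fn1 (-3.81), Col1a1 (-2.00) and Col4a2 (-1.25) the falls. In MEF 10 of the 15 were higher than in ES cells (12.2% of all genes), led by Col3a1 (6.98), Col1a1 (6.85) and Fbn2 (4.31). Ncan (-1.59) and Vwf (-1.39) were lower (12.8% of all genes). Against NPC, 10 were higher in MEF (10.5% of all genes), led by Col1a1 (8.84), Col3a1 (7.38) and Fn1 (5.07). Bcan (-7.07) and Ncan (-6.71) were lower (7.95% of all genes). Vcan, the versican gene, was higher than in ES cells in NPC (1.84) and in MEF (1.98).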

How the data were processed

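Messenger RNA of 8 samples was measured on Affymetrix Mouse Genome arrays of 45101 probe sets. The deposited values were linear intensity, 1 per probe set and array. The submitters' processing notes name GCOS 1.4, and its background and scaling settings are not given in the sources used here. The 64 control probe sets were left out. Of the rest, 34945 were annotated to 1 gene, 932 to several and 9160 to none. After log2(intensity + 16), the arrays were brought to a common distribution (quantile normalization), and the probe set with the highest mean stood for each of 18193 genes.

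R 4.3.3 and limma 3.58.1 fitted all 8 arrays in 1 model with a variance trend, which was tested on simulated data. The TIMP genes and members called with a log2 difference of at least 2 are given array by array, others in part where single arrays matter. Up to 3 called genes per list and direction were named, others (Reck, Bsg, Furin, Vcan, the markers and the synapsin genes) for their role. Members and lists were chosen with earlier results of these data known. The number of arrays limits the precision.

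Array medians before normalization ran from 5.13 to 5.57 and trimmed means from 111 to 232. The alternatives were 3 other scalings, pseudocounts of 1 and 64, a filter on dim genes, other choices of probe set, other variance models, the compared groups alone, a replicate block, other thresholds and leaving out each array.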

Additional observations from a re-analysis of the deposited data

How the results depend on the processing

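Of 51 calls on members over the 3 comparisons, 39 held under all 22 alternatives that could be fitted, and no call turned its direction. A pseudocount of 64 ended 12 calls and lowered the members lower in NPC than in ES cells from 5 to 3, the members lowest in NPC from 4 to 2 and the genes called to 2626 (NPC against ES), 2937 (MEF against ES) and 2103 (MEF against NPC). With no minimum difference these were 8530, 8447 and 7145 genes, and at the deposited scaling, which shifted the median of all genes by 0.36 (MEF against ES) and 0.44 (MEF against NPC) towards MEF, 5095 genes were called in MEF with NPC. The single member lower in MEF than in ES cells became 0 at the deposited scaling, with a pseudocount of 64 and with the replicate block, and 2 under the trimmed mean scaling, with a pseudocount of 1 and with no minimum difference. Without Adamts9, members highest in NPC became 1 at the deposited scaling and with the mean of probe sets. The causes were not tested. Leaving out each array gave 7 to 8 members higher and 5 to 7 lower for NPC against ES, 18 to 20 and 0 to 2 for MEF against ES and 16 to 17 and 2 to 3 for MEF against NPC. Members highest in ES and lowest in MEF numbered 0 to 1 each, and those lowest in NPC 4 to 6. Arrays of the same replicate number did not deviate together over all genes (correlations from -0.02 to 0.02). Whether they shared a culture or batch is not stated and cannot be told from these correlations. With the replicate block, 7 members were higher and 5 lower for NPC against ES, 19 higher for MEF against ES, and 16 higher and 2 lower for MEF against NPC. Signals near 4 limit any statement on dim members.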
